A study of Mus musculus with 17 samples.

Results

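The receptors for serotonin, dopamine, noradrenaline and acetylcholine were examined as a group in the mouse hippocampus. The members were the protein-coding genes whose symbols begin with Htr, Drd, Adra, Adrb, Chrm, Chrna or Chrnb, and 46 of the 55471 genes in the count table met this rule. Libraries were made from total hippocampal RNA of mice labelled C57BL/6 (C57BL/6J in the methods), aged 3 to 6 months, all given 5 administrations of tamoxifen. CBP-ifKO mice carry floxed Crebbp, the gene of the lysine acetyltransferase CBP, and a Camk2a_creERT2 transgene, a tamoxifen-inducible Cre recombinase driven by the Camk2a promoter, which is active in forebrain excitatory neurons. Control mice are described in the methods as littermates without creERT2, although a label of each Control sample names Camk2a_creERT2. Sal mice had saline alone, PTZ0 mice had saline after kindling by repeated injections of 45 mg/kg pentylenetetrazole (PTZ, a blocker of GABA-A receptors), and PTZ45 mice had a further 45 mg/kg of PTZ after the same kindling, with hippocampi taken 45 min after the last injection. In the paper, these repeated injections brought on seizures in Controls, while no CBP-ifKO reached the stage of progressive seizures. Kindling and kindled therefore name the injections given here, not the outcome. There were 3 libraries in each of the 6 groups, except Control PTZ45 with 2, which gave 8 Control and 9 CBP-ifKO libraries. The methods describe individual male mice for the Sal samples, and the sources used here do not say whether each kindled library is 1 animal.

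The monoamines and acetylcholine reach the hippocampus through long axons from cell groups in the brainstem and basal forebrain. Most act through G proteins. Receptors coupled to Gs raise cyclic AMP, those coupled to Gi or Go lower it and open potassium channels, and those coupled to Gq activate phospholipase C. The nicotinic acetylcholine receptors (Chrna and Chrnb subunits) and the Htr3 serotonin receptors are cation channels built from subunits. These transmitters are known to tune excitability and memory formation in hippocampal circuits.

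Libraries held 5831992 to 18735643 counts. Crebbp was lower in CBP-ifKOs (2169 ± 201 normalized counts in Control, SD, n = 8; 1214 ± 94.95, n = 9), while Esr1, to which reads of the creERT2 transgene can map, was at 41.0 to 77.8 in Control and 703 to 941 in CBP-ifKO libraries. The immediate early gene Fos, a check of the last PTZ injection, was at 2483 and 2915 in Control PTZ45, at 163 to 288 in CBP-ifKO PTZ45 and at or below 62.4 elsewhere. The summed level of 7 choroid plexus markers was 10883 to 44483 in 5 libraries (Control Sal replicate 2, Control PTZ0 replicate 2, CBP-ifKO Sal replicate 1, CBP-ifKO PTZ0 replicate 3 and CBP-ifKO PTZ45 replicate 2) and 452 to 1165 in the other 12. A lane code in the labels divides the groups: Control Sal and PTZ0 carry code 3, Control PTZ45 and CBP-ifKO Sal code 4, and CBP-ifKO PTZ0 and PTZ45 code 5. Genotype and lane therefore cannot be told apart within any one treatment.

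The receptors covered a wide range of levels, compared here as normalized counts per kilobase of exon averaged over all 17 libraries. Chrm1, the main muscarinic receptor of pyramidal neurons, was highest at 270.6, followed by Chrm3 at 113, Chrnb2 at 103, Chrna7 at 89.7, Adra1d at 86.4, Htr1a at 86.2, Htr2c at 75.0 and Htr4 at 69.2. Chrm1 was above all others in every library. The per-kilobase levels of Adra1d and Htr1a differed by less than the spread of either gene across libraries. Among dopamine receptors Drd5 (45.5) stood above Drd1 (23.9) and Drd2 (5.17), and among adrenergic receptors Adra1d stood above Adra2c (48.2) and Adrb1 (35.0). A total of 11 members averaged under 10 normalized counts and had no adjusted p in the comparison of genotypes over all treatments. They were Adrb3 (7.97), Chrnb3 (2.62), Chrnb4 (2.53), Adra2b (2.03), Chrna6 (1.43), Htr1d (1.41), Chrna10 (1.17), Drd4 (1.02), Drd3 (0.364), Htr3b (0.194) and Chrna9 (0.136), and nothing can be said at this depth of differences among these.

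**Figure D1:**
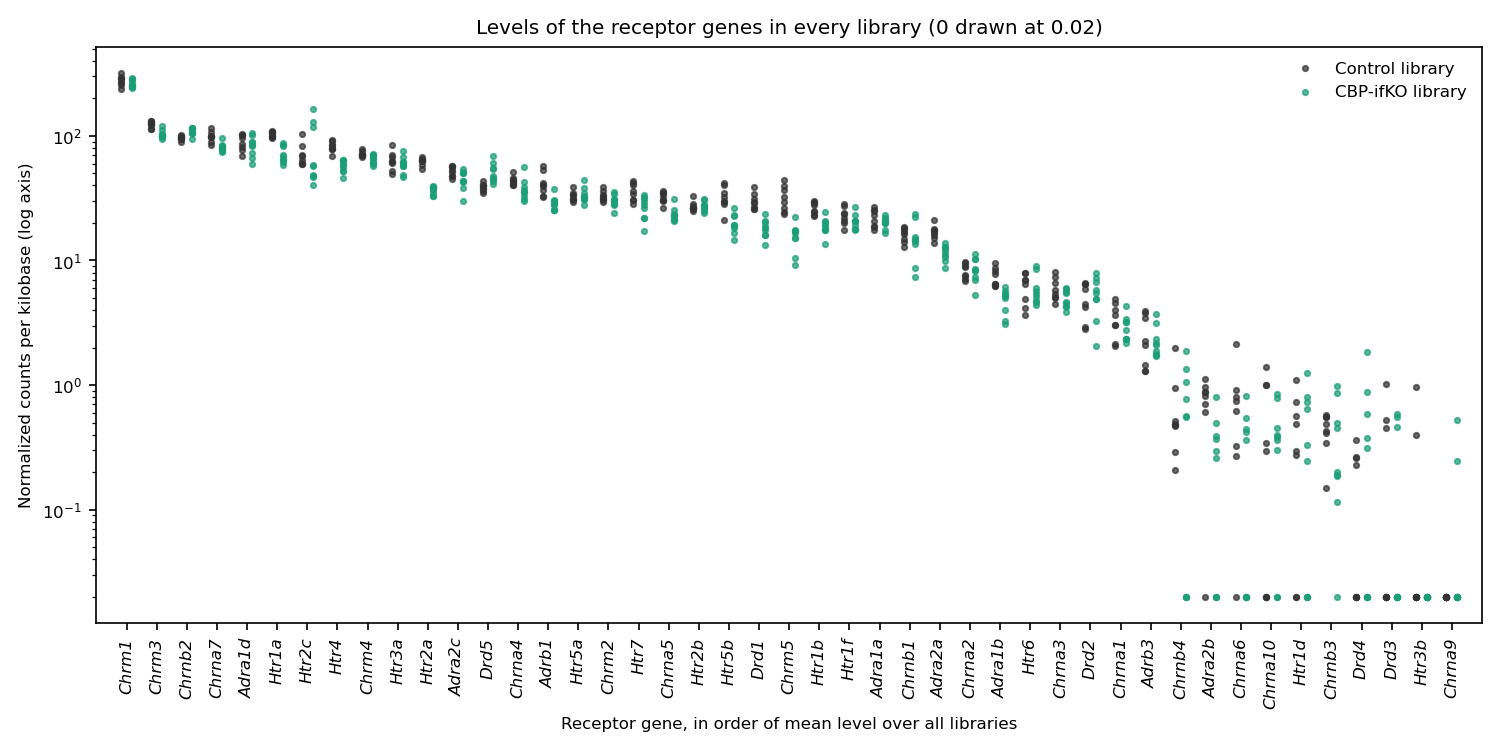
Normalized counts per kilobase of exon (log axis) for 45 of the 46 receptor genes, each point a library, with Control in grey and CBP-ifKO in green and zeros drawn at 0.02. Chrm1 leads at a mean of 270.6, and the 11 genes at the right, from Adrb3 on, average under 10 normalized counts.

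The first question was whether loss of CBP in excitatory neurons goes with a difference in these receptors irrespective of treatment. In CBP-ifKOs, 16 receptor genes were lower and 2 were higher among the 35 with an adjusted p. The lower ones included Htr2a at 58.8% of the Control level, Chrm5 at 48.9%, Drd1 at 60.7%, Htr1a at 69.8% and Htr4 at 69.5%. The 2 higher genes were Drd5 and Chrnb2. A gene was called here when the Wald test of DESeq2, fitted on all genes and all 17 libraries with treatment as a term, gave a Benjamini-Hochberg adjusted p under 0.05. Over all genes tested, 19.3% were called, 11.5% lower and 7.76% higher. With the lane code as a further term, only Htr2a and Htr1a of these 18 receptors stayed called (0.799% of all genes). The calls of the other 16 given in the next paragraphs do not hold under that term. That fit takes each treatment to act alike in both genotypes. Because calls are more frequent among abundant genes, the same was counted among genes averaging 50 or more normalized counts, where 12 of 25 receptors were called lower and 2 higher, against 15.0% and 9.97% of all such genes. The median log2 fold change (log2FC, CBP-ifKO over Control) was -0.24 over the tested receptors and 0.01 over all genes tested. The means of all 16 lower receptors were lower in each of the 3 treatments. In 7 of them no CBP-ifKO library reached the lowest Control library, a pattern that 2.16% of all tested genes showed. Since RNA came from whole hippocampus, fewer cells of a type and less RNA per cell cannot be told apart in any of these values.

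**Figure D2:**
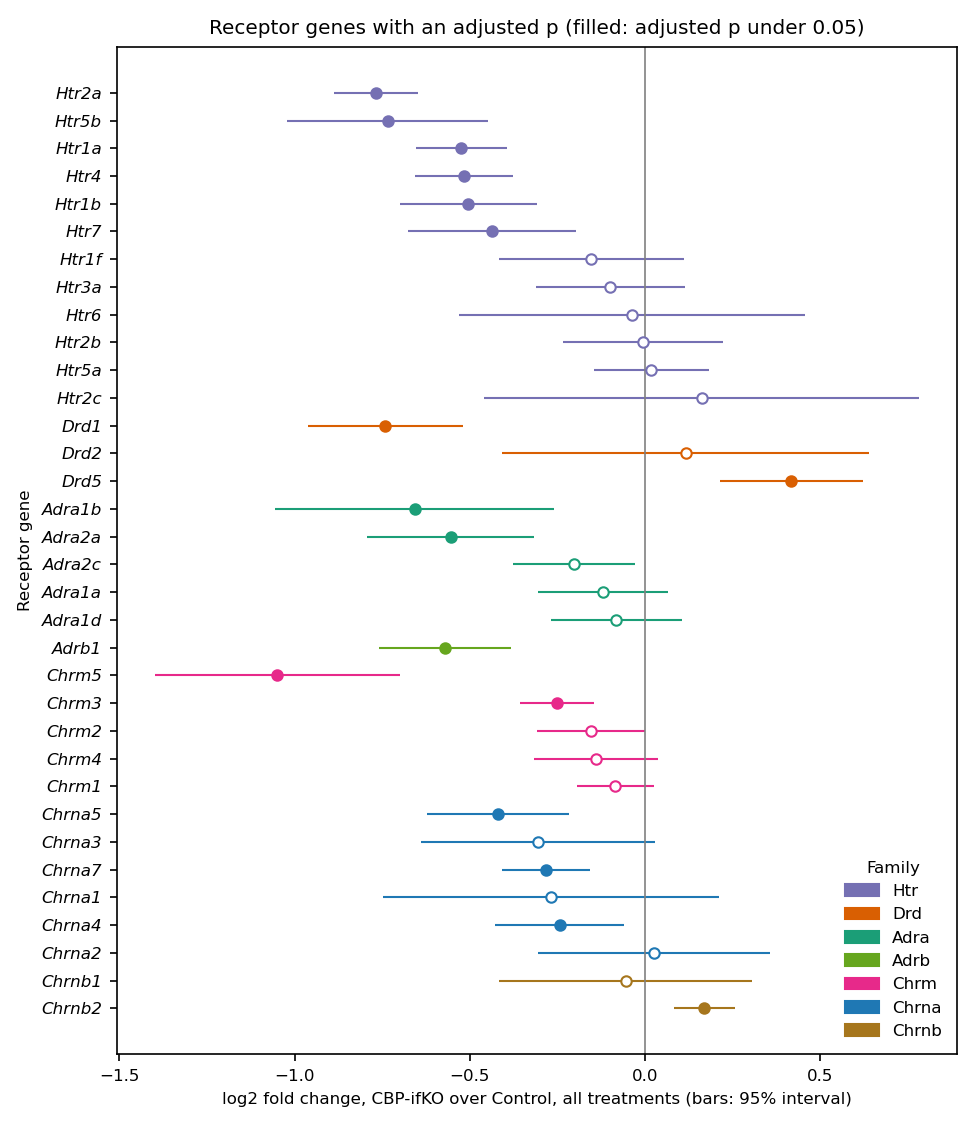
Log2 fold change (log2FC) of CBP-ifKO over Control across all treatments, with 95% intervals, for 34 of the 35 receptor genes with an adjusted p, coloured by family; filled symbols have an adjusted p under 0.05. The 15 filled points to the left of 0 include 6 Htr genes, and Drd5 and Chrnb2 are the 2 filled points to the right.

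Serotonin receptors, the largest family, had 6 of 12 tested genes lower and none higher. Of all tested receptors 45.7% were called lower, and of all tested genes 11.5%. Htr2a, the Gq-coupled receptor through which serotonergic hallucinogens act, lies at chr14:74640840-74709494 (GRCm38, plus strand, ENSMUSG00000034997). Its normalized counts were 352, 303 and 358 in Control Sal, 354, 362 and 328 in Control PTZ0 and 367 and 380.3 in Control PTZ45. In CBP-ifKOs they were 217, 185 and 183 in Sal, 205, 219.6 and 209.7 in PTZ0 and 222, 218 and 196 in PTZ45. Every CBP-ifKO library lay below every Control library, and the log2FC was -0.77 (SE 0.06, adjusted p = 4.66e-33). No alternative removed this call, and the highest adjusted p over 26 of them was 0.00482, with lane as a term.

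Htr1a, an inhibitory receptor coupled to Gi or Go that hyperpolarizes pyramidal neurons, lies at chr13:105443639-105448122 (plus strand, ENSMUSG00000021721). It stood at 495, 435 and 479 in Control Sal, at 480.2, 444 and 447 in Control PTZ0 and at 441 and 462 in Control PTZ45. The CBP-ifKO values were 294, 396 and 315 in Sal, 369, 379 and 311.5 in PTZ0 and 262, 279 and 286 in PTZ45. The genotypes did not overlap in any treatment, and the log2FC was -0.52 (SE 0.07, adjusted p = 2.53e-13). The lowest 3 of the 17 libraries were those of CBP-ifKO PTZ45. Htr4, a Gs-coupled receptor, ranged from 340.1 to 458 with a median of 402 in Control libraries and from 224 to 315 with a median of 287 in CBP-ifKO libraries. Here too the ranges were apart, with a log2FC of -0.52 (SE 0.07, adjusted p = 3.36e-11).

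The remaining 3 lower serotonin receptors overlapped between genotypes over all libraries, although Htr5b did not overlap within any one treatment. Htr1b, a receptor coupled to Gi or Go that sits on axon terminals and limits transmitter release, was at 107 to 142 (median 126) in Control and 64.0 to 116 (median 89.1) in CBP-ifKO libraries, a log2FC of -0.50 (SE 0.10, adjusted p = 1.18e-05). Its exons share 852 bases with D430036J16Rik on the opposite strand, which was also lower (38.97 ± 8.19 and 26.98 ± 5.88, adjusted p = 0.00751), and whether counting used the strand is not given in the sources used here. Htr5b was at 40.6 to 80.8 (median 59.98) and 28.2 to 51.1 (median 37.0), with a log2FC of -0.73 (SE 0.15, adjusted p = 1.34e-05). The Gs-coupled Htr7 was at 96.2 to 149 (median 119) and 58.4 to 115 (median 94.97), with a log2FC of -0.44 (SE 0.12, adjusted p = 0.00365). The other tested Htr genes, which include the channel subunit Htr3a, had log2FCs between -0.15 (Htr1f) and 0.16 (Htr2c) and none was called.

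Htr2c is a Gq-coupled receptor that is abundant in the epithelium of the choroid plexus as well as in neurons. In normalized counts it had the largest SD within any group (644 in CBP-ifKO Sal). Relative to the group mean, some scarce receptors varied more. Its counts were 651, 768 and 560.5 in Control Sal, 594, 958 and 555 in Control PTZ0 and 645 and 555 in Control PTZ45. In CBP-ifKOs they were 1520.1, 438 and 373 in Sal, 442, 539 and 1098 in PTZ0 and 548, 1199 and 454 in PTZ45. The 5 highest values belonged to the 5 libraries with high choroid plexus markers (768 to 1520.1), and the other 12 libraries ranged from 373 to 651. Over all libraries the log2FC was 0.16 (SE 0.32, adjusted p = 0.784), while the edgeR test called Htr2c higher (0.19, adjusted p = 0.00206). In the other 12 libraries, a choice made after the data had been seen, Htr2c was at 594 ± 44.7 in Control (SD, n = 6) and 465.7 ± 66.6 in CBP-ifKO (n = 6), with a log2FC of -0.36 and an adjusted p of 0.00115 in DESeq2. In that fit 11.8% of all tested genes were called.

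**Figure D3:**
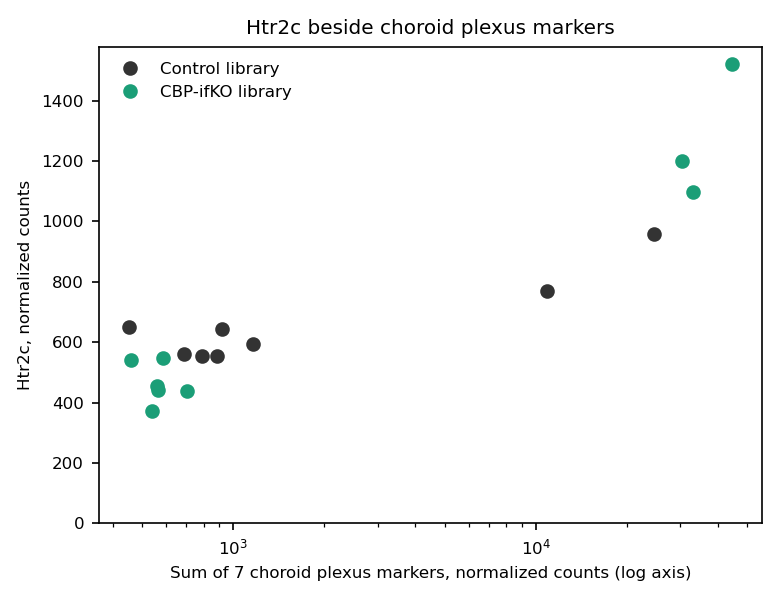
Htr2c (normalized counts) against the summed level of 7 choroid plexus markers (log axis), each point a library. The 5 libraries at the right, with sums of 10883 to 44483, hold the 5 highest Htr2c values, and among the 12 at the left the CBP-ifKO libraries average 465.7 and the Control libraries 594.

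Dopamine receptors changed in both directions although Drd1 and Drd5 are both coupled to Gs. Drd1 (chr13:54051183-54055705, minus strand, ENSMUSG00000021478) was at 98.2, 94.8 and 94.0 in Control Sal, at 141, 105 and 107 in Control PTZ0 and at 123 and 113 in Control PTZ45. Its CBP-ifKO values were 64.1, 85.1 and 65.8 in Sal, 48.7, 74.5 and 58.4 in PTZ0 and 75.7, 69.0 and 57.8 in PTZ45. All CBP-ifKO libraries were below all Control libraries, with a log2FC of -0.74 (SE 0.11, adjusted p = 2.82e-09). Drd5 (chr5:38319367-38322518, plus strand, ENSMUSG00000039358) was at 111 to 137 (median 123) in Control and at 130.0 to 219 (median 149.9) in CBP-ifKO libraries, a log2FC of 0.42 (SE 0.10, adjusted p = 8.38e-04). The ranges of Drd5 overlapped, and its highest value was that of CBP-ifKO Sal replicate 3. Its exons share 1531 bases with Gm26560 on the opposite strand, which averaged 6.29 normalized counts. Drd2 was near the lower end of what was tested, at 12.7 ± 3.99 in Control and 13.6 ± 4.70 in CBP-ifKO, and was not called (adjusted p = 0.818).

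Among adrenergic receptors, Adrb1, Adra2a and Adra1b were lower and none of those tested was higher. Adrb1, the Gs-coupled receptor that mediates much of the action of noradrenaline on hippocampal plasticity, lies at chr19:56722199-56733113 (plus strand, ENSMUSG00000035283). Its counts were 134, 111 and 137 in Control Sal, 125, 141 and 109.5 in Control PTZ0 and 195 and 179 in Control PTZ45. They were 96.1, 127 and 93.9 in CBP-ifKO Sal, 86.4, 85.9 and 86.7 in CBP-ifKO PTZ0 and 98.8, 101 and 104 in CBP-ifKO PTZ45. The genotypes overlapped only through CBP-ifKO Sal replicate 2, and the log2FC was -0.57 (SE 0.10, adjusted p = 1.40e-07).

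The alpha receptors included the inhibitory Adra2a, which acts as an autoreceptor on noradrenergic axons and also on the cells they contact. It was at 67.4 to 102 (median 81.5) in Control and 42.1 to 67.3 (median 56.0) in CBP-ifKO libraries, ranges that just failed to meet, with a log2FC of -0.55 (SE 0.12, adjusted p = 9.09e-05). The Gq-coupled Adra1b was at 20.9 to 32.0 (median 24.1) and 10.5 to 20.7 (median 17.7), with a log2FC of -0.66 (SE 0.20, adjusted p = 0.00993). The more abundant Adra1d was at 170.1 ± 24.9 in Control and 159 ± 28.8 in CBP-ifKO, and Adra2c at 179 ± 16.9 and 155 ± 25.98. Neither was called, with a log2FC of -0.08 (95% interval -0.27 to 0.11) for Adra1d and of -0.20 (-0.38 to -0.03, adjusted p = 0.0921) for Adra2c, which was called without CBP-ifKO Sal replicate 3 (adjusted p = 0.0323). Adra1a was not called either, with a log2FC of -0.12 (-0.30 to 0.06).

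All 5 muscarinic receptors were tested, and Chrm3 and Chrm5 were lower. Chrm5 (chr2:112479171-112480769, minus strand, ENSMUSG00000074939), a Gq-coupled receptor known mainly from dopamine neurons, showed the largest fold difference of all tested receptors. Its counts were low, at 58.4, 46.8 and 42.5 in Control Sal, at 39.5, 51.5 and 63.8 in Control PTZ0 and at 70.7 and 38.0 in Control PTZ45. In CBP-ifKOs it was at 27.5, 16.6 and 14.8 in Sal, at 24.3, 27.7 and 26.8 in PTZ0 and at 24.2, 36.0 and 28.3 in PTZ45. No libraries of the genotypes overlapped, and the log2FC was -1.05 (SE 0.18, adjusted p = 1.70e-07). Chrm3, also coupled to Gq and the second most abundant receptor per kilobase, was at 707 to 823 (median 774) in Control and 590.0 to 754 (median 631) in CBP-ifKO libraries, a log2FC of -0.25 (SE 0.05, adjusted p = 5.21e-05).

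Chrm1, the most abundant member, was not called. Its values were 1545 to 2066 in Control and 1574 to 1882 in CBP-ifKO libraries, with a log2FC of -0.09 (95% interval -0.20 to 0.02, adjusted p = 0.316). The Gi-coupled Chrm2 and Chrm4 had log2FCs of -0.15 and -0.14 and were not called.

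Among nicotinic subunits, 3 of 6 alpha genes were lower and 1 of 2 beta genes was higher. Chrna7, which forms channels by itself and passes calcium readily, was at 378 to 519 (median 447) in Control and 336 to 429.8 (median 366) in CBP-ifKO libraries, with a log2FC of -0.28 (SE 0.06, adjusted p = 1.73e-04). Chrna5, an accessory subunit, was at 82.5 to 112 (median 99.1) and 64.8 to 97.5 (median 72.5), with a log2FC of -0.42 (SE 0.10, adjusted p = 6.75e-04). Both genes overlapped between genotypes in at least 1 treatment.

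Chrna4 and Chrnb2 encode the subunits of the most common heteromeric nicotinic receptor of the brain, and their changes had opposite signs. Chrna4 was at 202 to 259 (median 219) in Control and 149.9 to 284 (median 179) in CBP-ifKO libraries, with a log2FC of -0.24 (SE 0.09, adjusted p = 0.0487), a call lost in 21 of 26 alternatives. Chrnb2 (chr3:89746195-89764632, minus strand, ENSMUSG00000027950) was at 785, 751 and 837 in Control Sal, 823, 826 and 799.8 in Control PTZ0 and 857 and 789 in Control PTZ45. In CBP-ifKOs it was at 886, 971 and 879 in Sal, 965, 942 and 912 in PTZ0 and 794, 886 and 966 in PTZ45. The genotypes were apart in Sal and PTZ0 and overlapped in PTZ45, and the log2FC was small at 0.17 (SE 0.04, adjusted p = 0.00156). This call too was lost without the 5 libraries with high choroid plexus markers (adjusted p = 0.0526), as well as with lane as a term and within lane code 4. The exons of Chrnb2 share 1365 bases with Adar on the opposite strand, which was at 1655 ± 116 in Control and 1590 ± 73.3 in CBP-ifKO (adjusted p = 0.408). Chrnb1, the other tested beta subunit, was at 41.0 ± 5.08 and 37.9 ± 13.6 and was not called (adjusted p = 0.877).

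**Figure D4:**
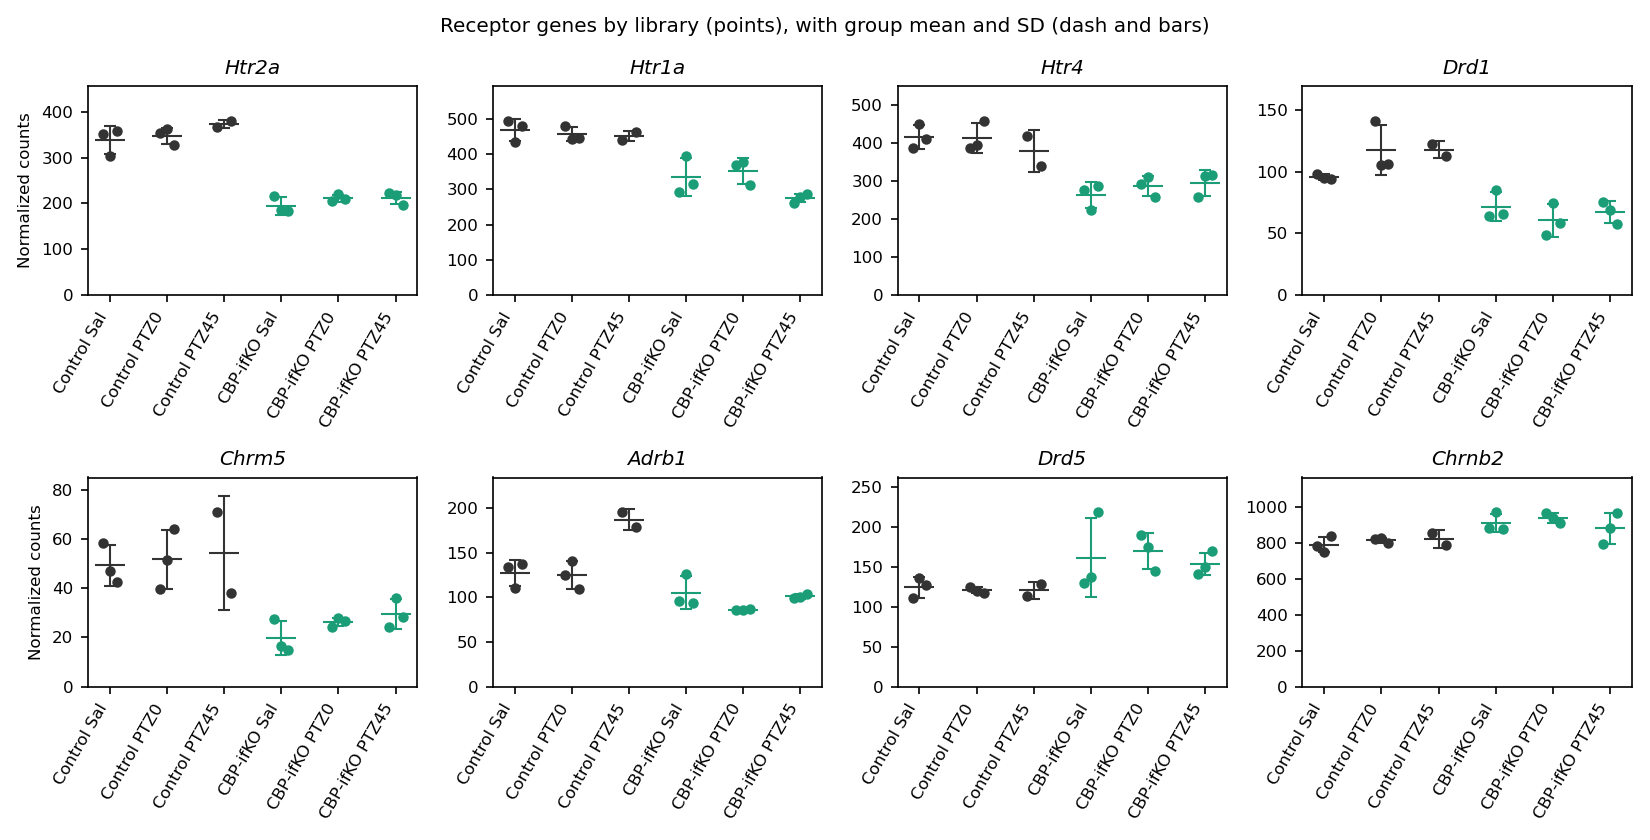
Normalized counts of 8 receptor genes in every library by group (points, with the mean as a dash and the SD as bars; each axis starts at 0). In Htr2a, Htr1a, Htr4, Drd1 and Chrm5 all CBP-ifKO points lie below all Control points, and Adrb1 is highest in the 2 Control PTZ45 libraries at 179 and 195.

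Read by signalling route, Gs-coupled receptors had 5 lower and 1 higher of 7 tested, with a median log2FC of -0.52. Receptors coupled to Gi or Go had 4 lower of 10 (median -0.18), those coupled to Gq 4 lower of 9 (median -0.12) and channel subunits 3 lower and 1 higher of 9 (median -0.24). Over all genes tested, 11.5% were lower and 7.76% higher and the median was 0.01, and the routes were not tested against each other.

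Promoter windows, the 250 bases before an annotated start in RefSeq (GRCm38.p6), were at hand for 35 of the 46 receptors and for 15 of the 18 called ones. They are shown because CBP is a partner of CREB, which binds the cyclic AMP response element (CRE). Searched on both strands were the full CRE, TGACGTCA, its first part TGACG, which also lies within the full CRE, and the AP-1 motif TGANTCA. The full CRE was in none of the 40 windows of the receptors, TGACG in 6 (15.0%) and AP-1 in 4 (10%), against 1.55%, 17.8% and 6.75% of all windows. TGACG was in 4 of the 16 windows of the lower receptors (Adra2a, Adrb1, Chrna5 and Htr7) and in 1 of the 2 windows of the higher ones (Chrnb2), and AP-1 in 1 of those 16 (Adra1b). Printed 5′ to 3′ on the strand of the gene are the windows of Htr2a and Htr1a, the 2 lower receptors with the smallest adjusted p, of Adrb1 and Adra2a, lower receptors with TGACG, and of Chrnb2, a higher receptor. Capitals mark TGACG, or CGTCA where it is on the opposite strand.
Htr2a, chr14:74640624-74640873, plus strand: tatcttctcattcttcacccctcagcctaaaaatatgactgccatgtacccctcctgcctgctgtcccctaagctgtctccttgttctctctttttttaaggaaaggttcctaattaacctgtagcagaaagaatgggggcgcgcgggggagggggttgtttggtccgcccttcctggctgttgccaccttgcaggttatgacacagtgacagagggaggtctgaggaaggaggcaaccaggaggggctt
Htr1a, chr13:105443443-105443692, plus strand: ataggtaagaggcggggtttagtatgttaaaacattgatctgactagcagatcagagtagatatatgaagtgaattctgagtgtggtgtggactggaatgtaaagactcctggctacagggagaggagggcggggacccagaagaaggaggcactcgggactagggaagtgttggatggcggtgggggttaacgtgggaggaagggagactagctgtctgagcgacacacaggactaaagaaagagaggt
Adrb1, chr19:56721867-56722116, plus strand: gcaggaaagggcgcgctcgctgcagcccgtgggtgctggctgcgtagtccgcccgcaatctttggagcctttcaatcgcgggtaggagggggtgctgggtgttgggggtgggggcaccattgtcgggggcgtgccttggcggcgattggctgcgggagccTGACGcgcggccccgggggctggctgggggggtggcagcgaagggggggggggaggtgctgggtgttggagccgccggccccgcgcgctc
Adra2a, chr19:54045009-54045258, plus strand: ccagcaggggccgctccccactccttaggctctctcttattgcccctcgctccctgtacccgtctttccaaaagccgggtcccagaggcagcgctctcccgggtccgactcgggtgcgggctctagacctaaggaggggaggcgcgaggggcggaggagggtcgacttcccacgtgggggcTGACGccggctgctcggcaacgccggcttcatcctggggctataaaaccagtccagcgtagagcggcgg
Chrnb2, chr3:89764633-89764882, minus strand: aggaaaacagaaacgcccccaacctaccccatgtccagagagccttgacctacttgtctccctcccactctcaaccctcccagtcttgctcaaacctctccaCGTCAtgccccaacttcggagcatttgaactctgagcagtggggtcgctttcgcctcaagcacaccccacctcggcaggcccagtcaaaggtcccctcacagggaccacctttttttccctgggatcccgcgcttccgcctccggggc
The first 2 windows hold none of the 3 motifs, and a match or its absence says nothing of binding.

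Within single treatments fewer receptors were called, and those called were lower in CBP-ifKOs. In Sal, where 2.04% of all tested genes were called, 4 of 30 tested receptors were called, namely Htr2a (log2FC -0.79), Htr4 (-0.64), Htr1a (-0.52) and Chrm5 (-1.29, adjusted p = 0.0302). In PTZ0, with 6.68% of all genes called, 4 of 25 were called, namely Htr2a (-0.72), Drd1 (-0.96), Htr4 (-0.53) and Htr1a (-0.38, adjusted p = 0.0196). In PTZ45, with 3.07% of all genes called, 3 of 30 were called, namely Htr2a (-0.81), Adrb1 (-0.89) and Htr1a (-0.71). Htr2a and Htr1a were thus called in all 3 treatments. Leaving out 1 library changed these counts by over 1.5 times in several cases. In Sal the count fell to 2 without Control Sal replicate 1 or replicate 3, in PTZ0 to 2 without Control PTZ0 replicate 1 or 3 or CBP-ifKO PTZ0 replicate 3, and in PTZ45 to 1, Htr2a, without Control PTZ45 replicate 2. Where a Control PTZ45 library is left out, 1 remains in that group and is assumed to vary like the CBP-ifKO libraries. Htr2a was called in each treatment whichever library was left out (adjusted p up to 0.0442), while every other receptor lost its call in some of these fits, with the exception of Htr4 in Sal. In Sal, the call of Chrm5 ended in 3 of the 4 fits that gave it an adjusted p (up to 0.211, without Control Sal replicate 2 or 3 or CBP-ifKO Sal replicate 2), and that of Htr1a in 3 of 6 (up to 0.168). In PTZ0, calls ended in 4 of 6 fits for Htr1a (up to 0.293), in 2 of 6 for Htr4 (up to 0.0753) and in 1 of 6 for Drd1 (0.122, without Control PTZ0 replicate 1). In PTZ45, calls ended in 2 of 5 fits for Adrb1 (up to 0.346) and in 1 of 5 for Htr1a (0.0708), in each case with a lone Control PTZ45 library. Without the 5 libraries with high choroid plexus markers, Htr2a alone stayed called in Sal and in PTZ0.

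The edgeR test called more receptors, 8 in Sal (7 lower and 1 higher), 10 in PTZ0 (8 lower and 2 higher) and 8 in PTZ45, all lower, against 2.31%, 4.03% and 2.79% of all the genes it tested, which included genes that DESeq2 filters out. In 1 DESeq2 fit of all 17 libraries the counts were 6, 6 and 7, against 4.35%, 5.03% and 4.57% of all genes.

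The second question was whether these receptors differed after the kindling injections or after a further PTZ injection. No receptor was called by DESeq2 in PTZ45 against Sal or against PTZ0 in Controls, where 1.17% and 1.25% of all tested genes were called. Nor was any called in the same comparisons in CBP-ifKOs (0.294% and 0.0872% of all genes), in PTZ0 against Sal in Control (0.00843%) or CBP-ifKO (0.0112%), or in the genotype by PTZ45 interaction (0.329%). At an unadjusted p under 0.05 the receptors counted 1 of 44 and 2 of 45 in the Control PTZ45 comparisons, against 4.03% and 4.47% of all genes with a p. They counted 2 of 45 in each of the CBP-ifKO PTZ45 comparisons (2.46% and 1.59% of all genes), 0 and 1 of 45 for PTZ0 against Sal in Control and CBP-ifKO (0.581% and 0.336%) and 1 of 45 for the interaction (1.10%). The quasi-likelihood test of edgeR called Adrb1 in PTZ45 against Sal and Adrb1 and Adra1a in PTZ45 against PTZ0 in Controls, where it called 1.73% and 2.22% of all genes, and no receptor in the other 5 comparisons. The comparisons that share a group use the same libraries.

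Adrb1 was the receptor with the lowest p in both Control PTZ45 comparisons. Both Control PTZ45 libraries (195 and 179) lay above all Control Sal (111 to 137) and Control PTZ0 libraries (109.5 to 141). The log2FC was 0.55 against Sal (SE 0.20, adjusted p = 0.230) and 0.59 against PTZ0 (SE 0.20, adjusted p = 0.141) in DESeq2. The edgeR test gave adjusted p = 0.0170 and 0.00463, and with the GC correction Adrb1 was called in both comparisons too. Over the alternatives that keep both Control PTZ45 libraries, the adjusted p ranged from 0.0170 to 0.99996 against Sal and from 0.00463 to 0.99998 against PTZ0. In CBP-ifKOs the log2FC of PTZ45 against Sal was -0.03 (SE 0.21), with overlapping libraries, and against PTZ0 it was 0.23 (SE 0.21). All 3 CBP-ifKO PTZ45 libraries (98.8 to 104) lay above all 3 of CBP-ifKO PTZ0 (85.9 to 86.7), and the difference was not called. The difference between genotypes in the response from Sal to PTZ45 was -0.57 (SE 0.27, unadjusted p = 0.0326, adjusted p = 0.99998 in DESeq2), so it was not called. Control PTZ45 carries lane code 4, and Control Sal and PTZ0 code 3.

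**Figure D5:**
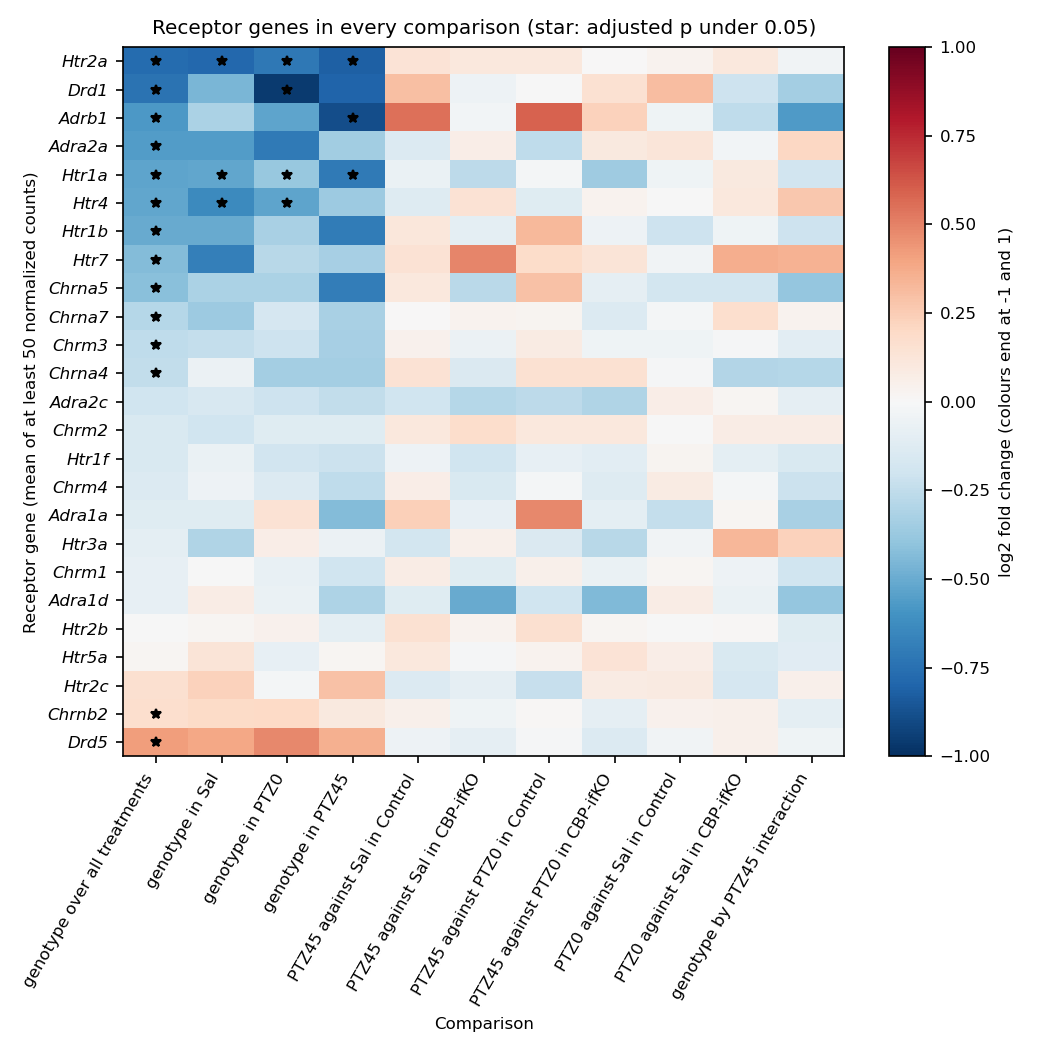
Log2FCs of the 25 receptor genes averaging 50 or more normalized counts (rows) in 11 comparisons (columns); red is higher and blue lower in the first-named group or in CBP-ifKO, colours end at -1 and 1, and stars mark an adjusted p under 0.05. The stars, 24 in all, lie in the 4 genotype columns and none in the 7 columns of treatment and interaction, where the deepest red is Adrb1 in Control PTZ45.

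Partners of the receptors in signalling were read from a list of 66 genes, of which 54 were tested over all treatments. Of these 19 were called, 17 lower and 2 higher, where 19.3% of all genes were called. Most tested partners averaged 50 or more normalized counts, and of all such genes 15.0% were called lower and 9.97% higher. With lane as a term none of the partners was called, against 0.799% of all genes. Enzymes and transporters that make, move or break down the transmitters counted 0 of 11, with a median log2FC of -0.06. Of 27 G proteins and effectors, 10 were lower and 1 higher. The lower ones included Gnaq, the alpha subunit of Gq (3180 ± 226 and 2778 ± 142, log2FC -0.20), Adcy5, an adenylyl cyclase (1244 ± 129 and 1004 ± 63.9, -0.30), and Kcnj9, a subunit of the potassium channel that Gi-coupled receptors open (943 ± 39.3 and 766 ± 61.6, -0.31). Gnal, a stimulatory alpha subunit, was the higher one (1273 ± 65.0 and 1468 ± 70.3, 0.20).

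Of 7 receptor kinases and arrestins, 2 were lower and Grk4 was higher (67.4 ± 6.90 and 93.6 ± 5.16, log2FC 0.48, adjusted p = 3.60e-05). Of 9 tested chaperones and lynx proteins of the channels, 5 were lower and none was higher. Lynx1, a membrane-anchored brake on nicotinic receptors, was at 3596 ± 175 in Control and 2674 ± 242 in CBP-ifKO (log2FC -0.42, adjusted p = 1.07e-14), and Ly6h of the same family at 869.7 ± 150.1 and 687 ± 106 (-0.32). S100a10, known to carry some serotonin receptors to the cell surface, was at 155 ± 10.9 and 101 ± 20.6 (-0.63, adjusted p = 4.67e-08).

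Within single treatments 2 of 50 tested partners were called in Sal, 6 of 48 in PTZ0 and 3 of 50 in PTZ45, all lower in CBP-ifKOs, against the 2.04%, 6.68% and 3.07% of all genes given above. Between treatments 2 partners were called, both in Controls. Ly6h was lower in PTZ45 than in Sal (log2FC -0.45, SE 0.13, adjusted p = 0.0383), 1 of 52 tested partners against 1.17% of all genes. Kcnj3, a subunit of the same kind of potassium channel as Kcnj9, was higher in PTZ45 than in PTZ0 (0.25, SE 0.07, adjusted p = 0.0480), 1 of 53 against 1.25%. These Control groups differ in lane code too.

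Some markers of hippocampal cells differed by genotype beside these receptors, and their part in the results was not tested. Over all genes tested, 11.5% were called lower and 7.76% higher. Among genes averaging 50 or more normalized counts these shares were 15.0% and 9.97%. Whether the marker calls hold with lane as a term is not given here. All 5 CA1 pyramidal cell markers were called lower, with a summed level of 5416 to 6119 in Control and 3783 to 4615 in CBP-ifKO libraries, as were 3 of 7 for CA2 and CA3 (2237 to 2816 and 1745 to 2150). Of the dentate granule cell markers 3 were lower and 1 higher of 6 (5555 to 6677 and 5380.0 to 5946), and of the interneuron markers 3 of 10 were lower (13013 to 14035 and 12100.2 to 13585). Astrocyte markers counted 3 lower of 6, those of endothelium 1 of 5, habenula 1 of 4 and thalamus 1 of 5, striatum 1 lower and 1 higher of 5, and choroid plexus, microglia and oligodendrocytes none.

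With lane as a term, 2 receptors stayed called, Htr2a (-0.88, adjusted p = 0.00482) and Htr1a (-0.86, adjusted p = 0.00462). In that fit 0.799% of all tested genes were called, and each treatment is taken to act alike in both genotypes. Fos did not behave so, at 2483 and 2915 in Control PTZ45 and 163 to 288 in CBP-ifKO PTZ45. All 18 receptors called without the lane term kept their direction under it, and the median SE of the 16 lower ones was 0.33 in place of 0.10. Their median log2FC was -0.72 with lane as a term and -0.59 within lane code 4, against -0.54 in the test without lane. With lane as a term these 16 ranged from -1.21 to -0.07, and without it from -1.05 to -0.24, so single receptors shifted. Within lane code 4, CBP-ifKO Sal and Control PTZ45 differ in treatment too. There Htr2a (-0.93) and Adrb1 (-0.86) were called of 30 tested, against 3.41% of all genes, and again all 18 kept their direction. Htr1a was not called there (-0.45, adjusted p = 0.103 in DESeq2). Both checks reuse libraries in which the 18 receptors were called, so a kept direction or median is no independent support. Without the 5 libraries with high choroid plexus markers, 13 of the 16 lower receptors and Drd5 stayed called. Adra1b, Chrna4 and Chrnb2 were among those that did not, and Htr2c was called in addition.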

How the data were processed

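Per the labels and the methods, the authors trimmed single-end reads with Trim Galore 0.6.4, aligned them with STAR 2.6.1 to GRCm38, kept reads of sufficient mapping quality and counted them on Ensembl exons with Rsubread. The deposited values are raw counts per gene, not normalized. Of 18 count columns, 1 matched no sample and was not used. That column carries the name pattern of Control PTZ45, for which 2 samples are described. Gene symbols, positions and exon lengths came from GENCODE M21 (99.6% of identifiers found) and from the deposited table, and promoter sequences from RefSeq.

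The main test was the two-sided Wald test in DESeq2 1.42.0 (R 4.3.3), as the methods of the study name it, on genes with at least 1 count and with independent filtering. Pairs of groups were fitted alone, the interaction on Sal and PTZ45 libraries, and the genotype over all treatments on all 17 libraries. Adjusted p-values cover all genes tested. Normalized counts use 1 set of DESeq2 size factors over the 17 libraries. The code was tested on simulated data. Replicates of a group differed by more than sampling noise (chi-square per degree of freedom 2.31 to 18.0). Where the sources do not say that libraries are separate animals, p-values measure only the spread between these samples.

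Named with values were receptors called in any comparison, the 2 most abundant per kilobase in each of the 7 families, Crebbp, Esr1 and Fos, and 8 of the called partner genes. Values of Adra1a, Drd2, Chrm2, Chrm4, Htr1f and Kcnj3 and the means of the 11 scarcest receptors were added outside this rule, after they had been seen. Of the receptors called lower, 1 is counted while its own values are not reported here. The receptors, gene lists and tests were chosen with earlier results of these data known. The alternatives tried were edgeR 4.0.16 (its quasi-likelihood test), TMM size factors, a minimum of 10 counts in 2 or more libraries, 1 surrogate variable (sva 3.50.0), a replicate block, a correction for GC content, lane as a term, 1 fit of all 17 libraries and leaving out each library. Leaving out the 5 libraries with high choroid plexus markers and the comparison within lane code 4 were added after the data had been seen.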

Additional observations from a re-analysis of the deposited data

Results flagged for a closer look

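Each named receptor was checked for a single library that lies far from the rest of its genotype, and 3 of 46 sets of libraries were picked out, where chance alone picks about 1 in 20. Adrb1 was at 126.6 normalized counts in CBP-ifKO Sal replicate 2, with the next highest CBP-ifKO library at 104. Chrna4 was at 284 in the same library, with the next at 212. Chrna5 was at 97.5 in CBP-ifKO Sal replicate 3, with the next at 80.2.

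Chrna5 was also picked out because its PTZ45 libraries lay above all Sal libraries in Control and below all Sal libraries in CBP-ifKOs, by small margins. Its counts were 96.0, 102 and 108.5 in Control Sal and 108.6 and 112 in Control PTZ45, against 72.63, 73.7 and 97.5 in CBP-ifKO Sal and 64.8, 67.0 and 72.55 in CBP-ifKO PTZ45. The difference between the genotypes in this response was -0.38 on the log2 scale (SE 0.31, unadjusted p = 0.210, adjusted p = 0.99998 in DESeq2), and neither it nor the change in either genotype was called.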

How the results depend on the processing

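At this depth 11 receptors averaged under 10 normalized counts and had no adjusted p for genotype over all treatments, and the single-treatment comparisons rest on 3 libraries per group (2 in Control PTZ45). Over all treatments the count of 18 called receptors was 17 to 18 with 1 library left out, 17 with the replicate number as a block (18.8% of all genes), and 2 both with lane as a term (0.799%) and within lane code 4 (3.41%). Causes of these shifts were not tested beyond what the report gives. The 19 called partner genes became 0, 2 and 11 with lane as a term, within lane code 4 and without the 5 libraries with high choroid plexus markers (16 to 21 with 1 library left out).

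In Sal the count of 4 was 8 with edgeR (2.31% of all genes), 1 without the choroid plexus libraries (0.4926%) and 2 to 5 with 1 library left out. In PTZ0 the count of 4 was 10 with edgeR (4.03%), 1 without those libraries (1.04%) and 2 to 4 with 1 left out. In PTZ45 the count of 3 was 8 with edgeR (2.79%), 7 in 1 fit of all 17 libraries (4.57%) and 1 to 3 with 1 left out, the lowest with a lone Control PTZ45 library. The counts of 0 for PTZ45 against Sal and against PTZ0 in Controls became 1 and 2 with edgeR (1.73% and 2.22%) and 1 and 1 with the GC correction (0.792% and 0.885%).

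Deviations of same-numbered libraries went together in some pairs and apart in others (40 correlations from -0.52 to 0.53, of which 15 were over 0.1). Libraries of different number were not compared, so this check cannot decide whether the numbers pair them. Control PTZ45 replicate 2 carries another number in the name of its count column. With the replicate block the counts were 2 in Sal, 2 in PTZ0 and 0 in PTZ45, against 0.895%, 4.39% and 0.735% of all genes.

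Signs reversed among receptors not called in the main test. Adra1d was at 0.048 with the GC correction and 0.19 within lane code 4, and Adra2c at 0.034 within lane code 4. Chrnb1 was at 0.14 with lane as a term, 0.18 within lane code 4, and from -0.19 to 0.051 with 1 library left out (above 0 when the CBP-ifKO library left out was Sal replicate 2 or PTZ0 replicate 2). Htr2c was at -0.096 with 1 surrogate variable, -0.36 without the choroid plexus libraries and -0.13 (without CBP-ifKO Sal replicate 1) to 0.26 with 1 library left out. Adrb1 in PTZ45 against Sal in CBP-ifKOs was at 0.10 with the GC correction and from -0.11 to 0.085 (without CBP-ifKO Sal replicate 2) with 1 left out.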
